A study of Mus musculus with 9 samples.

Results

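Interferon-stimulated genes are genes whose transcripts accumulate when a cell receives an interferon signal. A list of 42 of them, taken by symbol, was followed across sorted stromal cells of mouse adipose tissue and muscle, and all 42 were found among the 26214 genes of the expression table. The study used bulk RNA sequencing to set adipose stromal cells (ASCs) of subcutaneous adipose tissue beside fibro-adipogenic progenitors (FAPs), the mesenchymal stromal cells that reside in skeletal muscle, with and without acute muscle injury. It asked whether ASCs could be a source of the FAPs that appear in muscle after damage.

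All cells came from male C57Bl/6 mice (C57Bl/6 J in the methods) aged 8 to 12 weeks and were taken at day 1 after an injection. ASCs (3 libraries) came from the subcutaneous adipose tissue of mice injected with NaCl, and FAPs (2 libraries) from the quadriceps of mice injected with NaCl. Injured FAPs (3 libraries) came from the quadriceps after an injection of 80 µL of 50% glycerol in saline (NaCl 0.9%), which damages muscle fibres. A single library held CD31+CD45+ cells of the glycerol-injected quadriceps. ASCs and FAPs were depleted of CD31+ and CD45+ cells and then enriched for Sca-1 with magnetic beads. Each cell type was prepared from cells pooled from 3 animals, and the methods do not state whether every library had a pool of its own. The reporting summary calls the replicates of the article biological. The methods speak of triplicates, and 2 FAP libraries were analysed here, so every comparison with FAPs rests on these 2. The p-values given here therefore measure the spread between libraries, which may be technical.

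The reads assigned to genes numbered 27481573, 27349184 and 27402102 in ASC replicates 1, 2 and 3, and 24052508 and 24164447 in FAP replicates 1 and 2. For injured FAPs the numbers were 26968235, 26698572 and 27028114 in the same order, and the CD31+CD45+ library had 13091077. Levels are given as normalized counts, that is, reads divided by a size factor of the library. At this depth 1 read was worth between 0.763 and 1.32 normalized counts in the ASC, FAP and injured FAP libraries and 1.57 in the CD31+CD45+ library. A gene was called higher or lower when limma, fitted to log2(value + 1) over 13601 genes whose mean was 10 or more, gave an adjusted p under 0.05 and an absolute log2 fold change over 0.58. All 42 interferon-stimulated genes passed this filter on low values.

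Interferons are secreted proteins by which cells announce a viral or tissue threat to their neighbours. Type I interferons act through the receptor chains IFNAR1 and IFNAR2 and the kinases JAK1 and TYK2, and the signal reaches genes through STAT2 and IRF9, which act at interferon-stimulated response elements (ISREs) in promoters. Interferon gamma acts through IFNGR1 and IFNGR2, JAK1 and JAK2, and its signal reaches promoters at gamma-activated sites (GAS). The induced genes encode sensors of foreign nucleic acid, transcription factors that feed the response, proteins that block viral replication, and GTPases that attack intracellular pathogens.

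The labels were first compared with cell type markers. The stromal genes *Pdgfra*, *Ly6a* (which encodes Sca-1), *Cd34*, *Thy1*, *Pdpn*, *Col1a1*, *Col3a1*, *Dcn* and *Lum* were all detected in the 8 ASC, FAP and injured FAP libraries. *Pdgfra* lay between 10837 and 25268 normalized counts there and at 119 in the CD31+CD45+ library. These stromal markers were not constant between groups. In ASCs against FAPs 6 of the 9 were higher and 0 lower by limma, and after injury 2 were higher and 5 lower. Compared with ASCs, injured FAPs had *Pdgfra* higher (0.90) and 7 lower, among them *Cd34* (−2.15) and *Col1a1* (−2.37). The CD31+CD45+ library carried 45323 normalized counts of *Pecam1* (CD31) and 797 of *Ptprc* (CD45), and its endothelial markers summed to 400308 against 34725 for its leukocyte markers and 77707 for those of pericytes and smooth muscle.

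Markers of other cell types differed between the sorted groups. The 15 leukocyte markers summed to 532, 454 and 428 normalized counts in ASC replicates 1 to 3, and 292 and 546 in FAP replicates 1 and 2. Injured FAPs gave 765, 3415 and 658 in order of replicate. Injured FAP replicate 2 thus stood above the other sorted libraries, at 9.83% of the sum in the CD31+CD45+ library, with *Lyz2* as its most abundant marker (725). *Cd68* led the list in the other sorted libraries except ASC replicate 2, where *Csf1r* did (186). *Ptprc* had 0 reads in FAPs and in ASC replicates 1 and 3, and 11 of the 15 markers were at 0 in each FAP library. The 14 endothelial markers summed to 7384, 5936 and 7771 in ASCs, 7477 and 5260 in FAPs, and 2436, 2588 and 2045 in injured FAPs, led by *Tek* in ASCs and FAPs and by *Cdh5* in injured FAPs. *Tek* made up most of the ASC sums (4841 to 6700), and 8 of the 13 endothelial markers tested were lower in ASCs than in FAPs, with log2 fold changes down to −5.14 (*Robo4*). The 5 markers of pericytes and smooth muscle summed to 17370 and 14341 in FAPs, 4903, 5236 and 5189 in injured FAPs, and 1207, 850 and 788 in ASCs. Their most abundant gene was *Rgs5* in FAP replicate 1 (6148) and in injured FAPs, *Acta2* in FAP replicate 2 (4848) and *Notch3* in ASCs. Of 4 genes listed for plasmacytoid dendritic cells, *Siglech* and *Ccr9* did not exceed 4.65 in a sorted library. *Il3ra* was 1511 to 1827 in ASCs, called higher than in FAPs (457 and 476) and than in injured FAPs (445 to 536). *Tcf4* was 6852 and 7025 in FAPs, called higher than in ASCs (3587 to 3903) and than in injured FAPs (4073 to 4312).

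Of the genes tested, 122 were listed at exactly 0 throughout FAPs, while ASCs had 12 such genes and injured FAPs 11. A group of 2 libraries meets this condition more easily than a group of 3. For 15, 1 and 2 of these genes, respectively, the mean of the other libraries was above 100. *Ifi44* was the interferon-stimulated gene of the list with a 0 among these libraries, in FAP replicate 2. Among the markers, *Plvap* was at 0 in each FAP library and at 710 to 756 in ASCs, although *Flt1* and *Kdr* of the same cell type lay between 684 and 1260 in FAPs. *Lyz2*, *Cd74* and *Csf1r* were at 0 in FAPs as well, which enters the leukocyte calls given below. The source of these zeros was not tested.

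Interferon-stimulated genes stood higher in ASCs than in FAPs of uninjured muscle. Of the 42 genes, 36 were higher in ASCs, beside 23.4% of all genes tested. The most pronounced differences were those of *Rsad2*, *Ifit1* and *Zbp1*, at log2 fold changes of 4.37 (SE 0.35), 4.34 (SE 0.34) and 4.21 (SE 0.39). The median log2 fold change was 1.86 over the 42 genes and 0.005 over all genes tested. *Ifit2*, *Oas2*, *Ifitm1*, *Ifitm2*, *Gbp7* and *Samd9l* were not called. None of the 42 was called lower by limma, beside 23.8% of all genes tested, and this count was also 0 at an unadjusted p under 0.05, by edgeR and by DESeq2. In bulk samples such as these, fewer cells that express a gene and less RNA per cell cannot be told apart.

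The count of 36 became 31 after quantile normalization, with 1 gene (*Ifitm2*) lower, 32 without FAP replicate 2 and 34 without FAP replicate 1. Rescaling the libraries to a common 75th percentile shifted the median of all genes tested by −0.21 and that of the 42 genes to 1.66, and it turned the split of all called genes from 3183 higher and 3233 lower to 2452 higher and 4142 lower. Markers of other cells moved in the same comparison. Those of pericytes and smooth muscle were lower in ASCs (5 of 5), as were those of endothelial cells (8 lower and 4 higher of 13 tested), muscle fibres (4 of 4), satellite cells (2 of 2) and Schwann cells (3 of 3). Those of leukocytes (5 higher and 0 lower of 11 tested) and adipocytes (2 of 2) were higher, and the part of these cells in the result was not tested. *Adipoq* and *Plin1* passed the filter on low values only through the ASC libraries and *Pax7* only through the FAP libraries, where they were high, which fixed the direction of these calls.

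Injury was accompanied by a rise of part of the list in FAPs. At day 1 after glycerol, 28 of the 42 genes were called higher than in FAPs, beside 24.9% of all genes tested. The sharpest rises were those of *Ifi44*, *Zbp1* and *Rsad2*, at log2 fold changes of 7.26 (SE 1.00), 3.73 (SE 0.39) and 2.91 (SE 0.35). The median was 0.97 over the 42 genes and −0.05 over all genes tested. The 14 genes not called were *Irf1*, *Irf9*, *Stat2*, *Mx2*, *Ifi35*, *Ifitm1*, *Ifitm2*, *Gbp2*, *Gbp7*, *Irgm1*, *Parp14*, *Dtx3l*, *Sp100* and *Cmpk2*. None was called lower by limma, beside 27.7% of all genes tested, nor at an unadjusted p under 0.05, by edgeR or by DESeq2. After quantile normalization, rescaling to a common 75th percentile or with the replicate number as a block, 1 gene, *Irf1*, was called lower.

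Without FAP replicate 2 the count of 28 became 22. Leukocyte markers moved in the same comparison, 8 of the 11 tested being higher in injured FAPs and 0 lower, and the 5 markers of pericytes and smooth muscle were lower. Endothelial markers went both ways (7 lower and 3 higher of 13 tested). Of other markers, 2 of 4 muscle fibre, 1 of 2 satellite cell, 1 of 2 adipocyte and 1 of 3 Schwann cell markers were lower. The satellite cell marker was *Pax7*, which passed the filter on low values only through the FAP libraries, and this fixed its direction. Of the 8 leukocyte markers, *Adgre1*, *Tyrobp*, *Fcer1g*, *Laptm5* and *Coro1a* passed the filter on low values only through the injured FAP libraries, which fixed their direction, as did *Emcn* and *Cldn5* of the endothelial markers. Without injured FAP replicate 2, whose leukocyte sum was the highest, 27 genes were called higher. The part of the other cell types in the result was not tested.

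Many genes of the list were lower in injured FAPs than in ASCs. Of the 42, 22 were called lower, beside 25.8% of all genes tested, and 2 (*Ifi44* and *Dhx58*) were higher, beside 25% of all genes tested. The steepest falls were those of *Irgm1*, *Ifi205* and *Iigp1*, at log2 fold changes of −3.45 (SE 0.25), −3.04 (SE 0.20) and −2.87 (SE 0.16). The median was −0.68 over the 42 genes and 0.02 over all genes tested. By group mean, 29 of the 42 genes followed the order ASCs, injured FAPs, FAPs, and 11 had their highest mean in injured FAPs and their lowest in FAPs. *Irf1* was lowest in injured FAPs and *Ifitm1* lowest in ASCs. These orders are given without the shares over all genes tested, so they are not read as particular to the list.

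The count of 22 genes was 18 after quantile normalization and between 20 and 25 when 1 library was left out. The count of 2 genes higher in injured FAPs than in ASCs was 1 without ASC replicate 1, ASC replicate 3, injured FAP replicate 1 or injured FAP replicate 3, and 5 without ASC replicate 2, with *Bst2*, *Oas2* and *Samd9l* added. Markers of leukocytes (8 higher and 2 lower of 11 tested), endothelial cells (8 higher and 2 lower of 13), pericytes and smooth muscle (4 higher and 1 lower of 5), muscle fibres (3 higher of 4) and satellite cells (2 higher of 2) moved in this comparison too, adipocyte markers were lower (2 of 2), and their part was not tested. Of the 8 leukocyte markers, 6 passed the filter only through the injured FAP libraries (the 5 named above and *Itgam*), as did *Emcn* of the endothelial and *Myod1* of the satellite cell markers, while the 2 adipocyte markers passed only through ASCs. The 3 comparisons share libraries, those of FAPs, of injured FAPs or of ASCs, so their values are given side by side and are not independent.

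**Figure D1:**
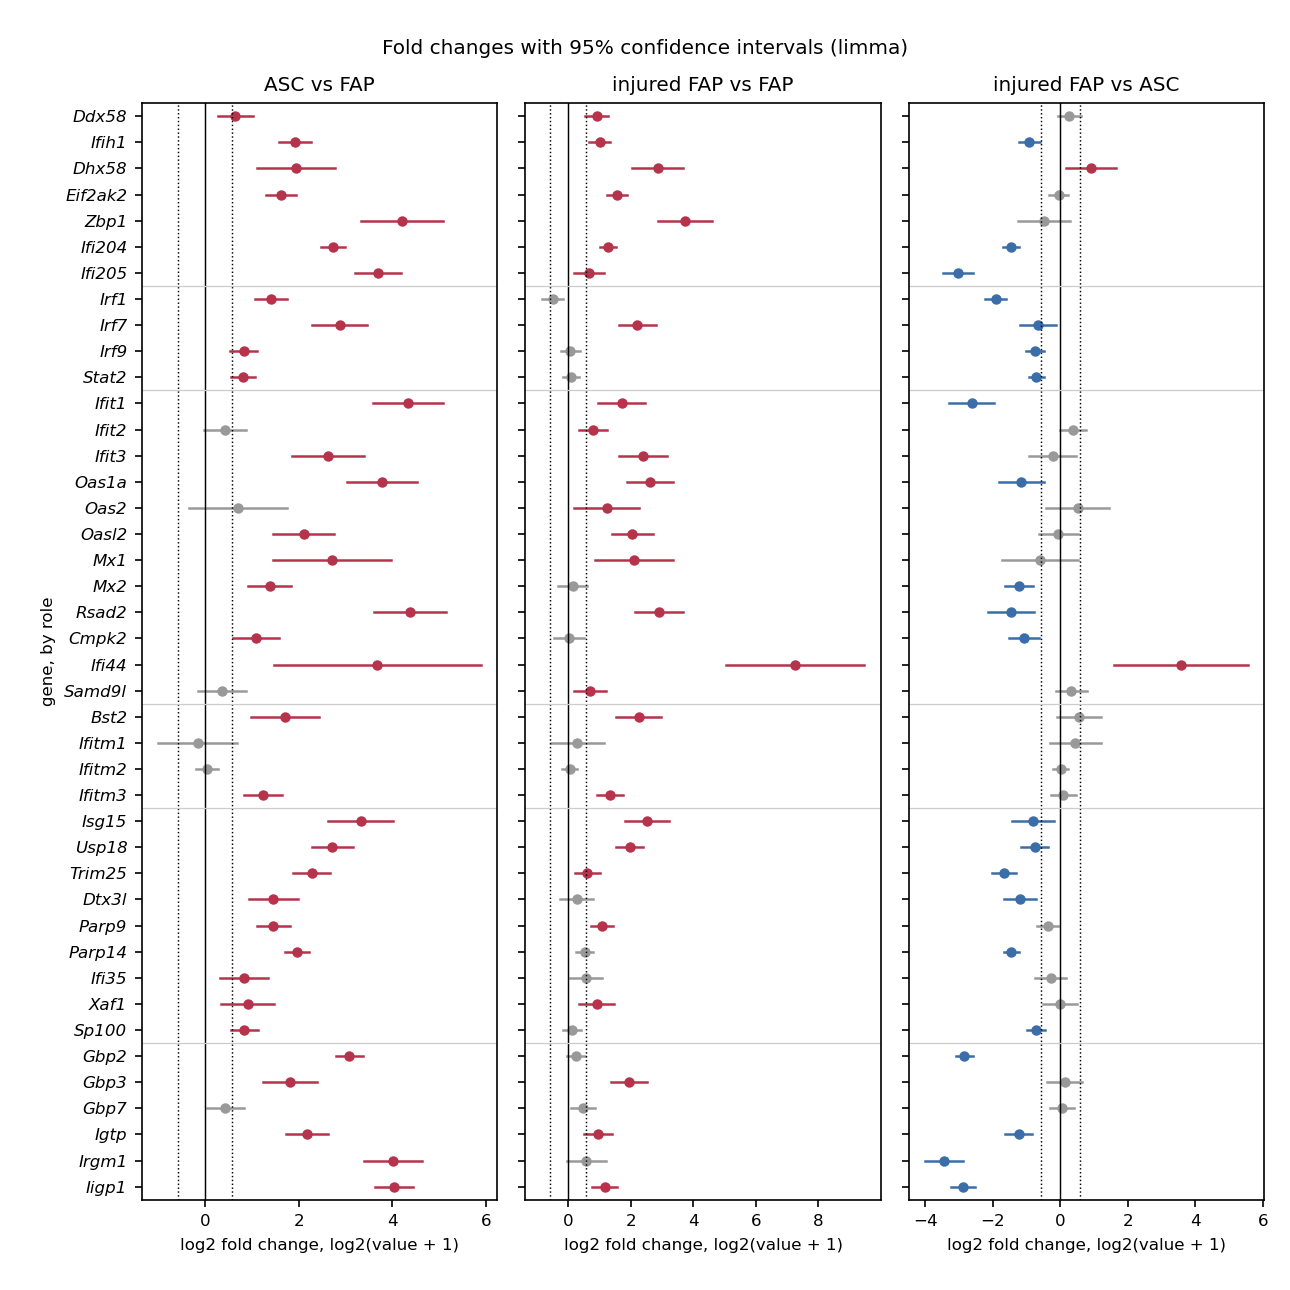
Log2 fold changes (limma, on log2(value + 1)) of the 42 interferon-stimulated genes in the 3 comparisons, grouped by role, with 95% confidence intervals as bars. The medians are 1.86 for ASCs against FAPs, 0.97 for injured FAPs against FAPs and −0.68 for injured FAPs against ASCs.

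**Figure D2:**
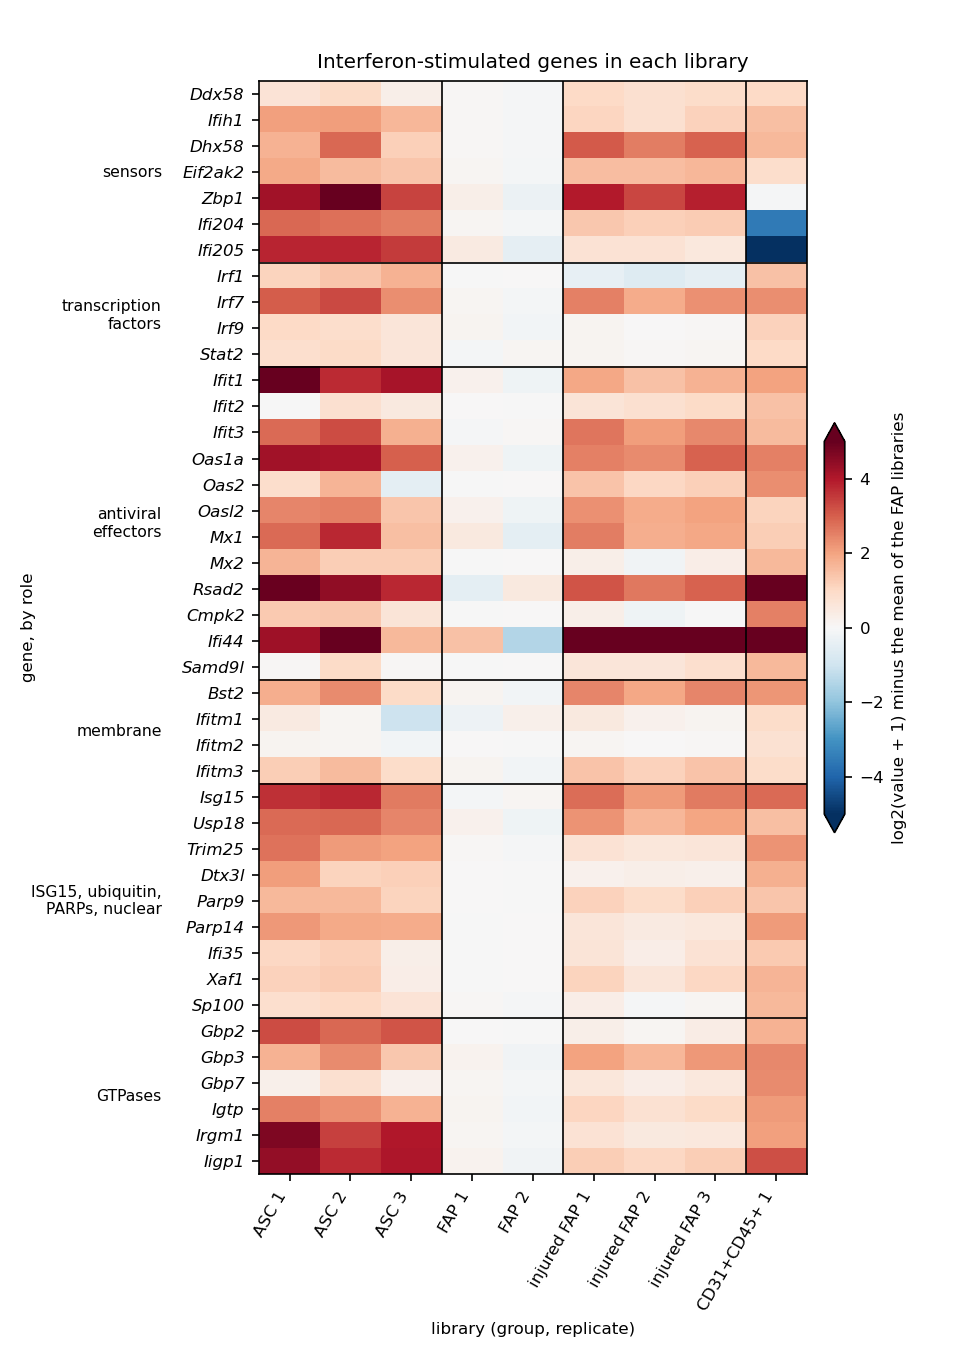
Level of each of the 42 genes in each of the 9 libraries, as log2(value + 1) minus the gene's mean over the 2 FAP libraries. By group mean, 29 of the 42 genes follow the order ASCs, injured FAPs, FAPs, and the CD31+CD45+ library is far below the others for *Ifi204* and *Ifi205*.

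The promoters of the list were searched for the elements through which interferon signals act. RefSeq windows of 250 bases before to 50 after the transcription start (build GRCm38.p6) matched 32 of the 42 genes by symbol, and *Usp18*, *Parp14*, *Dhx58*, *Mx1*, *Iigp1*, *Parp9*, *Mx2*, *Oas2*, *Zbp1* and *Ifi204* had no match. The core of the ISRE, searched as GAAANNGAAA on both strands, was present in 18 of the 32 genes (56.2%), beside 3.99% of all 27025 genes with a window (3.44% of 32851 windows). The stricter form GAAANNGAAACT was present in 10 genes (31.2%), beside 0.303% of all genes (0.271% of windows). The GAS core TTCNNNGAA, which reads the same on both strands and can overlap an ISRE match, was present in 9 genes (28.1%), beside 9.55% of all genes (8.30% of windows). A match describes the letters of the window and was not tested as a binding site.

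The 18 genes with an ISRE core held 28 matches, 22 of them before the transcription start and 21 of those within 160 bases of it. *Bst2*, *Gbp3*, *Ifi205*, *Ifit1*, *Ifit3*, *Ifitm3*, *Irgm1*, *Isg15* and *Oas1a* had more than 1 match. Stretches from 8 promoters are shown, each on the strand of its gene, with an ISRE core in capitals. Where the capitals read TTTC and TTTC around 2 bases, the core lies on the opposite strand. The stretches lie before the start of the gene and outside the annotated span of that gene, and overlap with other genes was not checked. They came from genes of several roles, with the transcription factors not among them. The search fixed every letter of the core except the 2 bases in its middle, so the likeness of the cores is not a result.

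Ifit1, chr19:34640764-34640825, plus strand: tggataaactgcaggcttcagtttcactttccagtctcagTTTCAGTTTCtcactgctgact
Ifit3, chr19:34583367-34583428, plus strand: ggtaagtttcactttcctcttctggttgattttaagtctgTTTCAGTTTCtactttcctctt
Isg15, chr4:156200863-156200924, minus strand: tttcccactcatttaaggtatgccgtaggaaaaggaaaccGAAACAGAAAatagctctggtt
Rsad2, chr12:26456551-26456612, minus strand: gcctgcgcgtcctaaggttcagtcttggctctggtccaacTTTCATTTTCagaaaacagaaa
Bst2, chr8:71537575-71537636, minus strand: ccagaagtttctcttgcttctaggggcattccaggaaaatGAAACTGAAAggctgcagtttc
Gbp7, chr3:142530243-142530304, plus strand: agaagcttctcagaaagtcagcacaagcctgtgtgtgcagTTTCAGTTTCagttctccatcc
Igtp, chr11:58199482-58199543, plus strand: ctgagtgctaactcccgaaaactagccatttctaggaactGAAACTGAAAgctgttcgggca
Ifi205, chr1:174031868-174031929, minus strand: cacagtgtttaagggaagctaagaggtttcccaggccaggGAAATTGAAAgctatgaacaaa

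The first base of the capitals lay 85 bases before the start in *Ifit1*, 122 in *Ifit3*, 66 in *Isg15*, 120 in *Rsad2*, 124 in *Bst2*, 53 in *Gbp7*, 34 in *Igtp* and 134 in *Ifi205*. Genes with and without the core overlapped in their fold changes. The 18 genes with the core had a median log2 fold change of 2.05 in ASCs against FAPs (from 0.04 to 4.37) and the 14 without it 1.00 (from −0.16 to 3.68). After injury the medians were 1.17 with the core (from 0.05 to 2.91) and 0.59 without it (from −0.50 to 7.26). *Gbp7*, with the core, was called in neither comparison, and *Ifi44*, without it in this window, had the highest rise after injury. In injured FAPs against ASCs the medians were −0.76 and −0.47.

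**Figure D3:**
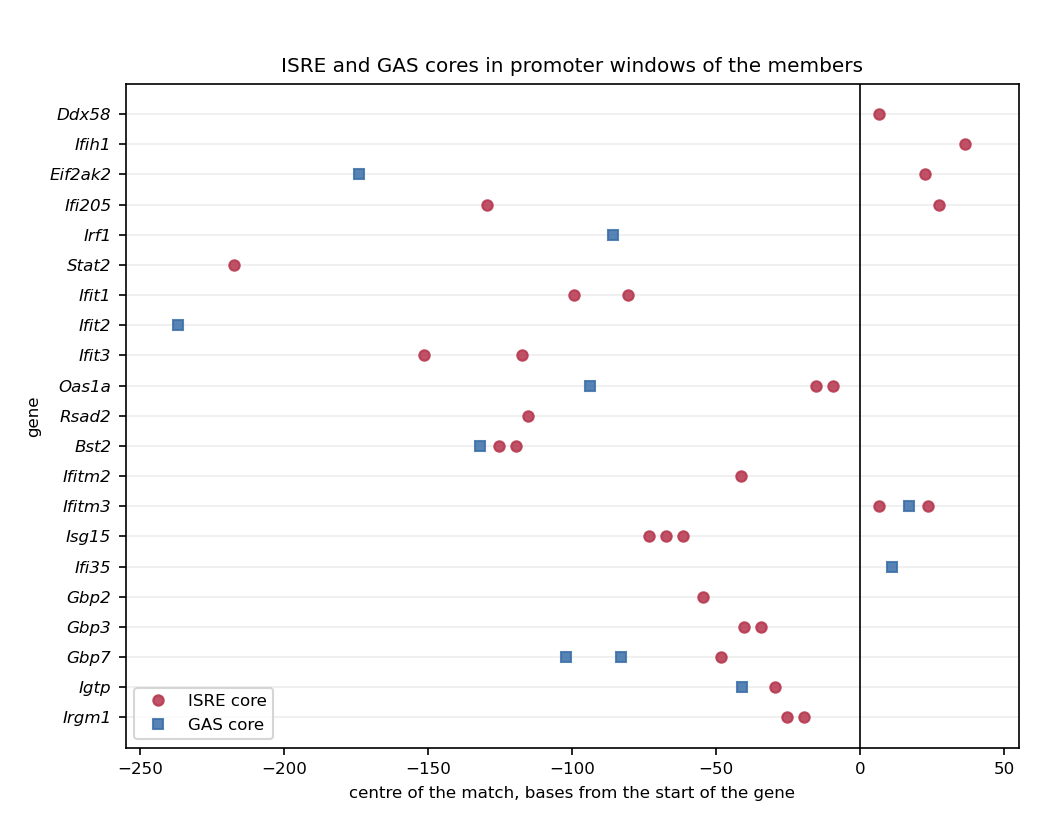
Positions of ISRE core matches (GAAANNGAAA, both strands) and GAS core matches in the RefSeq promoter windows of the members that hold one, in bases from the transcription start. Of the 28 ISRE matches, 22 lie before the start and 21 of those within 160 bases of it.

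Sensors of nucleic acid were higher in both comparisons with FAPs. The class was made of the cytosolic RNA helicases *Ddx58* (RIG-I), *Ifih1* (MDA5) and *Dhx58* (LGP2), the double-stranded RNA-dependent kinase *Eif2ak2* (PKR), *Zbp1*, which senses left-handed nucleic acid and can trigger necroptosis, and *Ifi204* and *Ifi205* of the PYHIN family of DNA sensors. All 7 were higher in ASCs than in FAPs (median 1.94), beside 23.4% of all genes tested, and all 7 in injured FAPs than in FAPs (median 1.27), beside 24.9%. Compared with ASCs, injured FAPs had *Dhx58* higher and *Ifih1*, *Ifi204* and *Ifi205* lower, beside 25% and 25.8% of all genes tested.

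*Zbp1* (chr2:173206612-173218923, minus strand, GRCm38) counted 2315, 4091 and 1293 in ASCs, 152 and 101 in FAPs, 1925, 1269 and 1856 in injured FAPs, and 118 in the CD31+CD45+ library. FAPs and CD31+CD45+ cells were low, and ASCs and injured FAPs were high and overlapped. Against FAPs, the log2 fold change was 4.21 (SE 0.39, adjusted p = 9.94e-06) in ASCs and 3.73 (SE 0.39, adjusted p = 1.89e-05) in injured FAPs, and each library of the higher group lay above both FAP libraries. Injured FAPs and ASCs differed by −0.48 (95% confidence interval from −1.26 to 0.30), which was not called. Without ASC replicate 3 this difference was −0.89 and passed the test (adjusted p = 0.0207).

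*Ifi205* (chr1:174011998-174031810, minus strand) counted 41987, 41836 and 34282 in ASCs, 4141 and 2206 in FAPs, 5041, 5007 and 4328 in injured FAPs, and 29.8 in the CD31+CD45+ library. ASCs stood far above both kinds of FAPs, the 2 FAP libraries differed from each other, and injured FAPs lay just above them. *Ifi205* had a log2 fold change of 3.70 (SE 0.22, adjusted p = 5.58e-07) in ASCs against FAPs and −3.04 (SE 0.20, adjusted p = 5.27e-07) in injured FAPs against ASCs. The rise after injury was 0.66 (SE 0.22, adjusted p = 0.0223), with 3 of 3 injured libraries above both FAP libraries. It was 0.21 (adjusted p = 0.325) without FAP replicate 2, and it was not called without injured FAP replicate 1 (adjusted p = 0.0621) or injured FAP replicate 2 (adjusted p = 0.0588), after quantile normalization (0.54, adjusted p = 0.0642) or at a common 75th percentile (0.57). Of the 100-base stretches of the *Ifi205* transcripts, 41.5% were shared with *Ifi211* or *Mndal*, so its level is uncertain, as is that of *Ifi204* (16.8%). *Ifi204* ranged from 12642 to 15735 in ASCs, 4893 to 5420 in injured FAPs and 2003 to 2256 in FAPs, with no overlap between these groups, and was 181 in the CD31+CD45+ library.

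*Dhx58* (chr11:100694884-100704271, minus strand) counted 404, 868 and 276 in ASCs, 126 and 113 in FAPs, 994, 715 and 927 in injured FAPs, and 369 in the CD31+CD45+ library. FAPs were lowest, and ASC replicate 2 lay among the injured FAP libraries while the other ASC libraries lay below them. After injury the log2 fold change was 2.86 (SE 0.37, adjusted p = 8.07e-05), and in ASCs against FAPs it was 1.94 (SE 0.37, adjusted p = 0.00124). Between injured FAPs and ASCs it was 0.92 (SE 0.33, adjusted p = 0.0315). That last call was lost without ASC replicate 1 (0.83, adjusted p = 0.0644), ASC replicate 3 (0.55, adjusted p = 0.121), injured FAP replicate 1 (0.82, adjusted p = 0.0971) or injured FAP replicate 3 (0.88, adjusted p = 0.0897), and without a filter on low values (adjusted p = 0.0507). An antisense gene, *Dhx58os*, overlaps its exons, and the strand setting of the counting is not stated. Of the remaining sensors, *Eif2ak2* was alike in ASCs (930 to 1296) and injured FAPs (1014 to 1104) and lower in FAPs (327 and 379). *Ddx58* had the smallest difference of the class between ASCs and FAPs, 0.65 (SE 0.17), which was not called without FAP replicate 2 (0.57, adjusted p = 0.0625) or without ASC replicate 2 (0.49), nor after quantile normalization (0.40) or at a common 75th percentile (0.44).

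Of the transcription factors, *Irf7*, a master regulator of type I interferon genes, was higher in both comparisons with FAPs, while *Irf1*, *Irf9* and *Stat2* were higher in ASCs and were not called after injury. All 4 were higher in ASCs than in FAPs (median 1.12), beside 23.4% of all genes tested. After injury 1 was higher (median 0.08), the same share as the 24.9% over all genes tested, and all 4 were lower in injured FAPs than in ASCs (median −0.73), beside 25.8%. The difference between these comparisons was not tested. After quantile normalization *Irf9* and *Stat2* were not called in ASCs against FAPs, nor in injured FAPs against ASCs.

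*Irf7* (chr7:141262706-141266481, minus strand) counted 4760, 5773 and 2896 in ASCs, 630 and 544 in FAPs, 3372, 2106 and 2840 in injured FAPs, and 2916 in the CD31+CD45+ library. FAPs were the low group, and ASC replicate 3 lay among the injured FAP libraries. ASCs exceeded FAPs by a log2 fold change of 2.88 (SE 0.27, adjusted p = 9.70e-06) and injured FAPs exceeded them by 2.22 (SE 0.27, adjusted p = 4.81e-05), with no overlap with FAPs. The difference of −0.66 (SE 0.24, adjusted p = 0.0317) in injured FAPs against ASCs was lost without ASC replicate 1 (−0.59, adjusted p = 0.0659), ASC replicate 2 (−0.45, adjusted p = 0.112), injured FAP replicate 2 (−0.48, adjusted p = 0.126) or injured FAP replicate 3 (−0.69, adjusted p = 0.0660). It was also lost after quantile normalization (−0.36), rescaling to a common 75th percentile (−0.55) and without a filter on low values (adjusted p = 0.0505). The exons of *Irf7* overlap those of *Phrf1* on the other strand.

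*Irf1* (chr11:53770014-53778374, plus strand), an early target of interferon gamma that does not need new protein synthesis, counted 6587, 7927 and 10089 in ASCs, 3029 and 3044 in FAPs, 2281, 1957 and 2206 in injured FAPs, and 8290 in the CD31+CD45+ library. ASCs were high, and all 3 injured FAP libraries lay below both FAP libraries. The exons of *Irf1* overlap those of *Gm17334* on the other strand, and the strand setting of the counting is not stated. *Irf1* was higher in ASCs than in FAPs by a log2 fold change of 1.41 (SE 0.16, adjusted p = 3.38e-05), and injured FAPs against ASCs gave −1.91 (SE 0.14, adjusted p = 1.15e-06). After injury the fold change was −0.50 (95% confidence interval from −0.85 to −0.15, adjusted p = 0.0164), short of the fold change threshold, and −0.67 after quantile normalization, −0.60 at a common 75th percentile and −0.59 with the replicate block, each of which was called. *Stat2* and *Irf9*, whose products act together at ISREs, ranged from 1789 to 2011 and from 1215 to 1479 in FAPs, and from 1950 to 2097 and from 1365 to 1458 in injured FAPs. These ranges overlapped between FAPs and injured FAPs, and the intervals of the difference were −0.16 to 0.36 for *Stat2* and −0.23 to 0.37 for *Irf9*.

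Antiviral effectors held both the largest rise after injury, that of *Ifi44*, and some of the genes without a call. The class was made of *Ifit1*, *Ifit2* and *Ifit3*, which bind foreign RNA or the proteins that do so, the oligoadenylate synthetase genes *Oas1a*, *Oas2* and *Oasl2*, the dynamin-like *Mx1* and *Mx2*, *Rsad2* (viperin), *Cmpk2*, *Ifi44* and *Samd9l*. Of the 12, 9 were higher in ASCs than in FAPs (median 2.36), beside 23.4% of all genes tested, and 10 in injured FAPs than in FAPs (median 1.88), beside 24.9%. In injured FAPs against ASCs, *Ifi44* was higher and 5 genes were lower (*Ifit1*, *Oas1a*, *Mx2*, *Rsad2* and *Cmpk2*), beside 25% and 25.8%. The median there was −0.42.

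*Ifi44* (chr3:151730922-151749960, minus strand) counted 51.4, 98.5 and 7.53 in ASCs, 6.66 and 0 in FAPs, 523, 296 and 492 in injured FAPs, and 979 in the CD31+CD45+ library. These values stood on 39, 87 and 6 reads in ASCs, 7 and 0 reads in FAPs, and 667, 382 and 645 reads in injured FAPs. Injured FAPs and CD31+CD45+ cells were far above the rest, and ASC replicate 3 was at the level of FAP replicate 1. On the log2 scale the fold change was 7.26 (SE 1.00, adjusted p = 0.000115) in injured FAPs against FAPs and 3.58 (SE 0.89, adjusted p = 0.00478) in injured FAPs against ASCs, with 3 of 3 injured libraries above every FAP and ASC library. Without FAP replicate 2, the library at 0, the rise of *Ifi44* after injury was 5.8 and still called, and without FAP replicate 1 it was 8.73. For ASCs against FAPs it was 3.68 (SE 1.00, adjusted p = 0.00890), and 2.21 (adjusted p = 0.118) without FAP replicate 2. A count of 0 in that library allows a value of up to 2.82 (3 reads).

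*Ifit1* (chr19:34640871-34650009, plus strand), whose promoter stretch is shown above, counted 9849, 3664 and 4886 in ASCs, 325 and 235 in FAPs, 1055, 773 and 928 in injured FAPs, and 1128 in the CD31+CD45+ library. The groups did not overlap, with ASCs highest and FAPs lowest. *Ifit1* had log2 fold changes of 4.34 (SE 0.34, adjusted p = 3.03e-06) in ASCs against FAPs, 1.72 (SE 0.34, adjusted p = 0.00122) in injured FAPs against FAPs and −2.62 (SE 0.30, adjusted p = 2.78e-05) in injured FAPs against ASCs. *Ifit3*, its neighbour on chromosome 19, had no such gap between ASCs (1144 to 3249) and injured FAPs (1434 to 2147), and differed between them by −0.23 (95% confidence interval from −0.92 to 0.46). Without ASC replicate 3 this difference was −0.66 and was called (adjusted p = 0.0126). *Ifit3* shares 31.7% of its 100-base stretches with *Ifit3b* and is uncertain. The third of these neighbours, *Ifit2*, lay between 651 and 793 in injured FAPs, at 406 and 416 in FAPs and between 408 and 708 in ASCs, and was called in injured FAPs against FAPs alone (0.80, SE 0.20). Without ASC replicate 1, *Ifit2* was also called in ASCs against FAPs (0.64, adjusted p = 0.00150).

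*Rsad2* (chr12:26442746-26456452, minus strand), which encodes an enzyme that makes a chain-terminating nucleotide, counted 1349, 958 and 605 in ASCs, 30.4 and 62.1 in FAPs, 389, 278 and 346 in injured FAPs, and 2458 in the CD31+CD45+ library. The CD31+CD45+ library was the highest, and ASCs, injured FAPs and FAPs followed without overlap. Log2 fold changes were 4.37 (SE 0.35, adjusted p = 3.51e-06) in ASCs against FAPs, 2.91 (SE 0.35, adjusted p = 4.44e-05) in injured FAPs against FAPs and −1.46 (SE 0.31, adjusted p = 0.00190) in injured FAPs against ASCs. Its neighbour *Cmpk2*, on the opposite strand of chromosome 12, ranged from 478 to 782 in ASCs but did not pass the test after injury, with 262 to 375 in injured FAPs and 305 and 309 in FAPs. The interval of that difference was −0.47 to 0.51 on the log2 scale.

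The 3 oligoadenylate synthetase genes of the list differed in pattern. *Oas1a* was 344 to 796 in ASCs, 222 to 332 in injured FAPs and 36.7 and 48.5 in FAPs, and 40.9% of its 100-base stretches were shared with *Oas1g*. *Oasl2* was 2138 to 4638 in ASCs, 2994 to 3958 in injured FAPs, and 713 and 940 in FAPs. *Oas2* was called after injury (1.23, SE 0.47, adjusted p = 0.0406), a call that was lost when any FAP or injured FAP library was left out (adjusted p from 0.0582 to 0.138). The call of *Oas2* was also lost by DESeq2 (adjusted p = 0.0571), at a common 75th percentile (adjusted p = 0.0545) and without a filter on low values (adjusted p = 0.0642). Without ASC replicate 3 it was called in ASCs against FAPs (1.31, adjusted p = 0.00182). *Mx1* and *Mx2* were low, with *Mx1* at 9.41 and 19.0 in FAPs, 50.4 to 83.2 in injured FAPs and 40.2 to 198 in ASCs. The rise of *Mx1* after injury (2.10, adjusted p = 0.00791) was not called without FAP replicate 2 (1.63, adjusted p = 0.0820), and without ASC replicate 3 *Mx1* was called lower in injured FAPs than in ASCs (−1.21, adjusted p = 0.0253). *Mx2* is annotated as a polymorphic pseudogene. The rise of *Samd9l* after injury (0.69, adjusted p = 0.0227) was not called without FAP replicate 1 (adjusted p = 0.0908), FAP replicate 2 (adjusted p = 0.0915) or injured FAP replicate 3 (adjusted p = 0.0755), nor at a common 75th percentile (adjusted p = 0.0518).

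**Figure D4:**
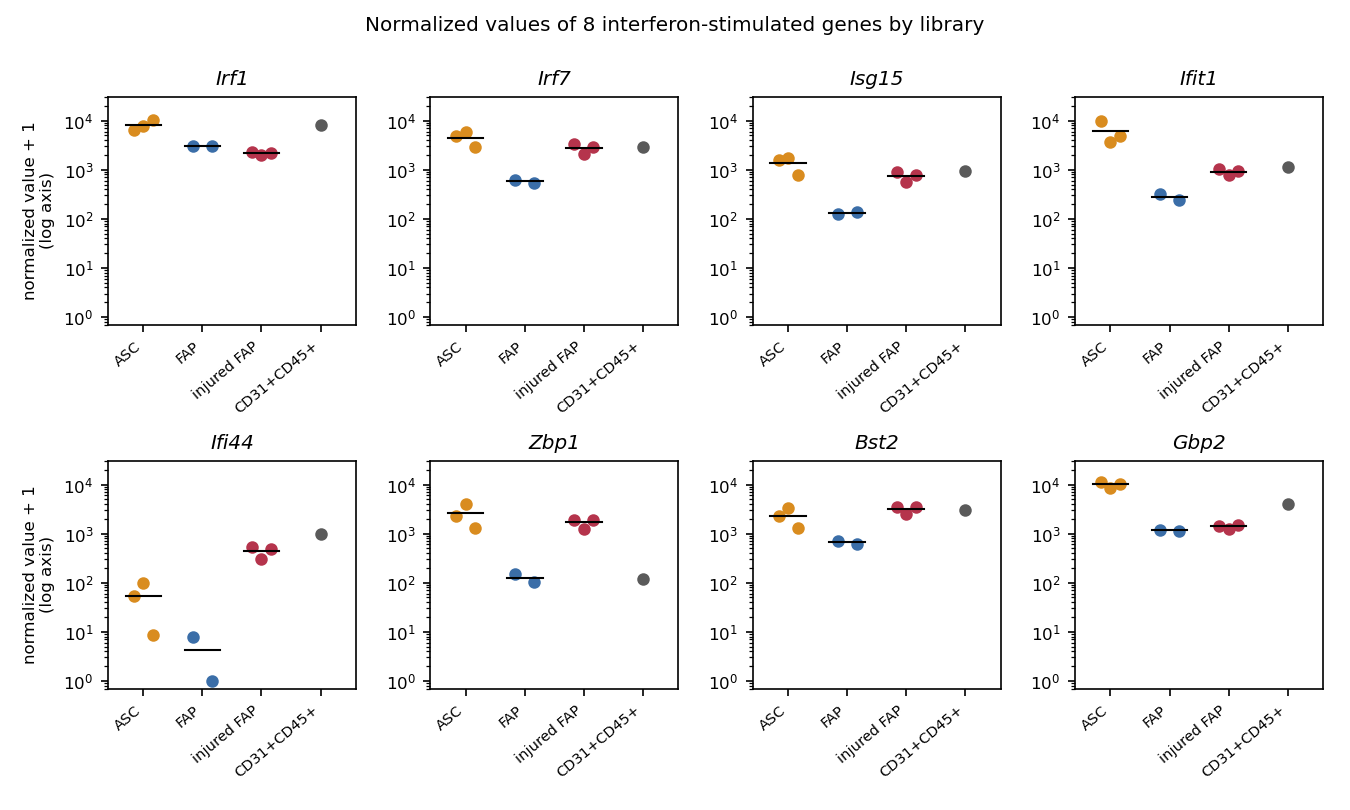
Normalized values (plus 1, log axis) of 8 interferon-stimulated genes in each library, 1 point per library, with a line at each group mean. *Irf1* is lowest in injured FAPs, and *Ifi44* is above 290 in injured FAPs and below 100 in ASCs and FAPs.

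Membrane restriction factors were the class with the smallest median difference between ASCs and injured FAPs (0.27), and differences between classes were not tested. *Bst2* (tetherin) retains budding virus at the cell surface, and *Ifitm1*, *Ifitm2* and *Ifitm3* act against the fusion of virus with host membranes. *Bst2* and *Ifitm3* were higher in ASCs and in injured FAPs than in FAPs, and *Ifitm1* and *Ifitm2* were called in neither, so that 2 of 4 were higher in each, beside 23.4% and 24.9% of all genes tested. None of the 4 was called in injured FAPs against ASCs by limma, at an unadjusted p under 0.05, by edgeR or by DESeq2. After quantile normalization *Bst2* and *Ifitm3* were called higher there (0.77 and 0.82).

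*Bst2* (chr8:71534255-71537456, minus strand) counted 2315, 3340 and 1277 in ASCs, 712 and 605 in FAPs, 3550, 2487 and 3527 in injured FAPs, and 3054 in the CD31+CD45+ library. FAPs were low, and ASC replicate 2 lay among the injured FAP libraries. The log2 fold change was 2.26 (SE 0.32, adjusted p = 0.000150) in injured FAPs against FAPs and 1.71 (SE 0.32, adjusted p = 0.00113) in ASCs against FAPs. Injured FAPs and ASCs differed by 0.55 (95% confidence interval from −0.09 to 1.19), and by 0.87 (adjusted p = 0.00972) without ASC replicate 2.

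*Ifitm3* (chr7:141009586-141010770, minus strand) counted 16341, 21175 and 13217 in ASCs, 7830 and 6332 in FAPs, 18722, 15745 and 18713 in injured FAPs, and 13155 in the CD31+CD45+ library. Both FAP libraries were low and the other libraries overlapped. *Ifitm3* rose after injury by a log2 fold change of 1.33 (SE 0.19, adjusted p = 0.000133) and was higher in ASCs than in FAPs by 1.24 (SE 0.19, adjusted p = 0.000257), the latter being 0.50 and not called after quantile normalization. Per kb of transcript *Ifitm3* (24942 normalized counts per kb) and *Ifi205* (24407) had the highest means of the 42 genes in ASCs, *Ifi205* being above *Ifitm3* in ASC replicates 1 and 3. *Ifitm3* was the most abundant per kb in injured FAPs (26146), and *Ifitm2* was in FAPs (14335) and CD31+CD45+ cells (24543). *Ifitm2* was alike in level across the sorted groups, from 8594 to 10459 in the 8 libraries. Its difference between ASCs and FAPs was 0.04 (95% confidence interval from −0.20 to 0.28) as deposited and −0.62 after quantile normalization, where it was called lower. *Ifitm2* shares 34.9% of its 100-base stretches with *Gm45717* and other copies and is uncertain.

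The class of *Isg15*, ubiquitin ligases and related genes was higher in ASCs in every listed member, and in part after injury. The class was made of *Isg15*, a ubiquitin-like protein that is joined to other proteins, *Usp18*, which removes it and dampens signalling at the interferon receptor, the ubiquitin ligases *Trim25* and *Dtx3l*, the ADP-ribosyltransferase family members *Parp9* and *Parp14*, *Ifi35*, the apoptosis-associated *Xaf1*, and *Sp100*, a component of nuclear bodies. All 9 were higher in ASCs than in FAPs (median 1.46), 5 (*Isg15*, *Usp18*, *Trim25*, *Parp9* and *Xaf1*) rose after injury (median 0.62), and 6 were lower in injured FAPs than in ASCs (median −0.76), beside 23.4%, 24.9% and 25.8% of all genes tested. After quantile normalization *Sp100* was not called in ASCs against FAPs (0.49), nor in injured FAPs against ASCs (−0.48). The count of 5 was 3 without FAP replicate 2, when *Trim25* (0.56, adjusted p = 0.0768) and *Xaf1* (0.91, adjusted p = 0.0508) were not called. The call of *Trim25* was also lost without injured FAP replicate 1 (0.57), after quantile normalization (0.54) and at a common 75th percentile (0.52).

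*Isg15* (chr4:156199424-156200818, minus strand) counted 1612, 1757 and 776 in ASCs, 122 and 136 in FAPs, 906, 567 and 783 in injured FAPs, and 932 in the CD31+CD45+ library. FAPs were low, ASC replicates 1 and 2 were high, and ASC replicate 3 lay among the injured FAP libraries. The log2 fold change was 3.32 (SE 0.32, adjusted p = 1.12e-05) in ASCs against FAPs and 2.51 (SE 0.32, adjusted p = 6.34e-05) in injured FAPs against FAPs. The difference of −0.82 (SE 0.28, adjusted p = 0.0258) in injured FAPs against ASCs was not called without ASC replicate 1 (−0.66, adjusted p = 0.0667), ASC replicate 2 (−0.60, adjusted p = 0.0919), injured FAP replicate 2 (−0.63, adjusted p = 0.102) or injured FAP replicate 3 (−0.86, adjusted p = 0.0551).

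*Usp18* followed *Isg15* in order, with 860 to 1172 in ASCs, 507 to 745 in injured FAPs, and 137 and 181 in FAPs, without overlap. *Parp9* and *Dtx3l*, whose exons overlap on opposite strands, differed after injury: *Parp9* rose by 1.09 (SE 0.16), while *Dtx3l* was 610 to 648 in injured FAPs against 513 and 531 in FAPs (0.27, 95% confidence interval from −0.26 to 0.79). The difference between these responses was not tested, and reads of the overlap cannot be told apart without strand. *Parp14* (0.52, SE 0.12, adjusted p = 0.00268) was short of the fold change threshold after injury. *Ifi35* (0.56, adjusted p = 0.0528) passed neither, and was called higher without injured FAP replicate 2 (0.68), with the replicate block (0.66), by edgeR (0.62) and by DESeq2 (0.59). In ASCs against FAPs the calls of *Ifi35* and *Xaf1* were lost without FAP replicate 1 or FAP replicate 2, while their fold changes barely moved. From 0.838 and 0.911, they became 0.835 and 0.909 without FAP replicate 1 and 0.840 and 0.913 without FAP replicate 2.

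Of the role classes, interferon-inducible GTPases had the largest median difference between ASCs and either kind of FAPs. In ASC replicate 2 alone, antiviral effectors (2.89) and sensors (2.74) had a higher median over FAPs than GTPases (2.60). *Gbp3* and *Gbp7* were not called between ASCs and injured FAPs, and differences between classes were not tested. *Gbp2*, *Gbp3* and *Gbp7* encode guanylate-binding proteins, and *Igtp*, *Irgm1* and *Iigp1* encode immunity-related GTPases that act at the vacuoles of intracellular pathogens. Of the 6, 5 were higher in ASCs than in FAPs (median 2.63), 3 (*Gbp3*, *Igtp* and *Iigp1*) rose after injury (median 0.76), and 4 were lower in injured FAPs than in ASCs (median −2.04), beside 23.4%, 24.9% and 25.8% of all genes tested.

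*Gbp2* (chr3:142620602-142638008, plus strand) counted 11219, 8495 and 10327 in ASCs, 1199 and 1144 in FAPs, 1444, 1241 and 1499 in injured FAPs, and 3917 in the CD31+CD45+ library. ASCs stood apart, and injured FAPs lay just above FAPs. *Gbp2* had a log2 fold change of 3.09 (SE 0.13, adjusted p = 9.26e-08) in ASCs against FAPs and −2.84 (SE 0.12, adjusted p = 3.49e-08) in injured FAPs against ASCs. After injury the difference was 0.25 (95% confidence interval from −0.05 to 0.54, adjusted p = 0.122).

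*Gbp3* (chr3:142560026-142573209, plus strand), close to *Gbp2* on chromosome 3, counted 1095, 1677 and 841 in ASCs, 376 and 288 in FAPs, 1345, 1035 and 1467 in injured FAPs, and 1759 in the CD31+CD45+ library. Here ASCs and injured FAPs overlapped and FAPs were low. The log2 fold change was 1.94 (SE 0.26, adjusted p = 9.39e-05) in injured FAPs against FAPs and 1.81 (SE 0.26, adjusted p = 0.000186) in ASCs against FAPs, and injured FAPs and ASCs differed by 0.13 (95% confidence interval from −0.38 to 0.65). *Gbp7*, the third gene of this cluster, was called in neither comparison with FAPs (0.43, adjusted p = 0.0561, and 0.48, adjusted p = 0.0348, short of the fold change threshold), and 10.2% of its 100-base stretches were shared with *Gm43802* or *Gbp3*.

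*Irgm1* (chr11:48861968-48871683, minus strand) counted 13931, 5796 and 8761 in ASCs, 591 and 506 in FAPs, 902, 759 and 792 in injured FAPs, and 2241 in the CD31+CD45+ library. ASCs were above all other libraries although they spread widely, and injured FAPs lay above FAPs. The log2 fold change was 4.02 (SE 0.28, adjusted p = 1.46e-06) in ASCs against FAPs and −3.45 (SE 0.25, adjusted p = 1.06e-06) in injured FAPs against ASCs. The rise after injury, 0.58 (SE 0.28, adjusted p = 0.0920), did not pass the test, and it was 0.59 (adjusted p = 0.0435) and called with the replicate block.

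*Iigp1* counted 14906, 9389 and 11644 in ASCs, 811 and 630 in FAPs, 1696, 1452 and 1676 in injured FAPs, and 6637 in the CD31+CD45+ library. The groups did not overlap, and the CD31+CD45+ library lay between ASCs and injured FAPs. The log2 fold change was 4.04 (SE 0.18, adjusted p = 1.11e-07) in ASCs against FAPs, 1.16 (SE 0.18, adjusted p = 0.000275) in injured FAPs against FAPs and −2.87 (SE 0.16, adjusted p = 2.19e-07) in injured FAPs against ASCs. *Igtp* had the same order, with 1239 to 2108 in ASCs, 633 to 789 in injured FAPs, and 340 and 403 in FAPs.

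**Figure D5:**
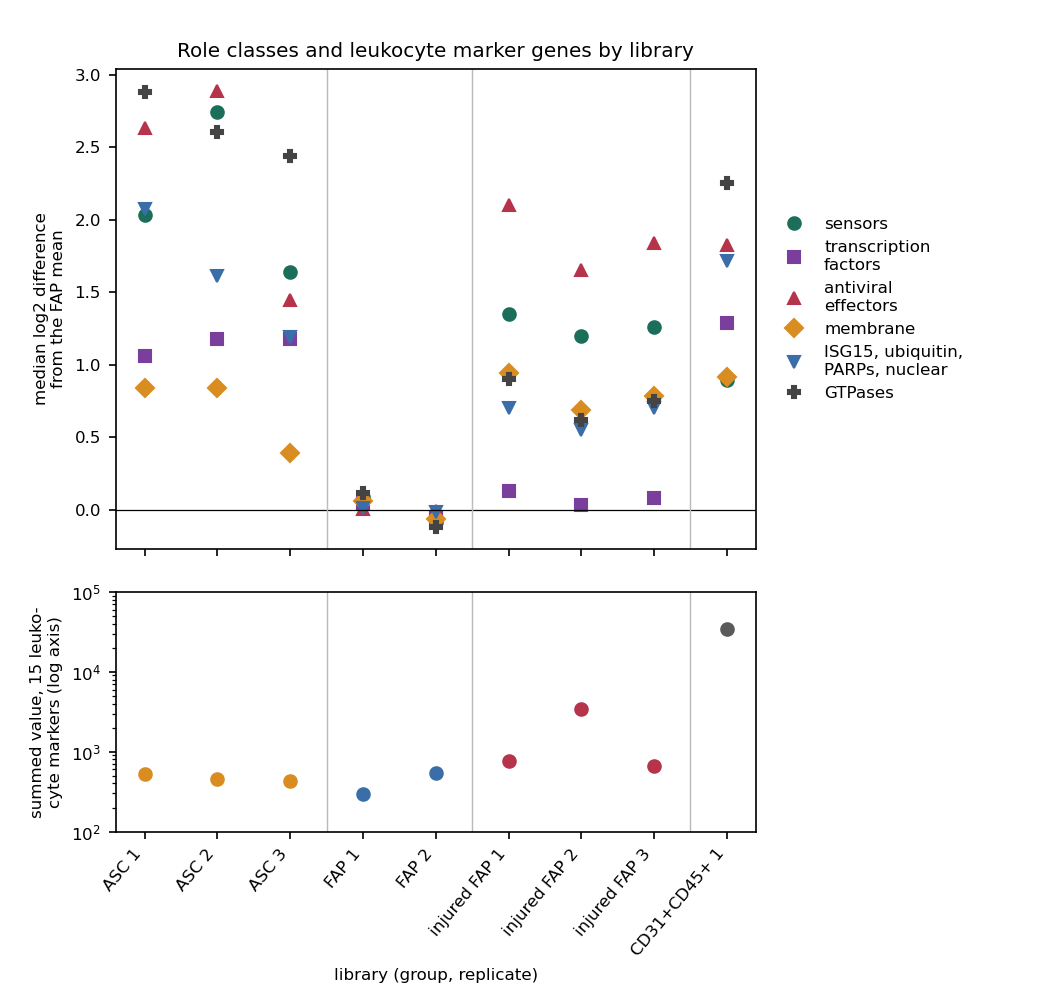
Median over the genes of each role class of log2(value + 1) minus the gene's mean over the FAP libraries, 1 point per library. The GTPases lie between 2.44 and 2.88 in ASCs and between 0.62 and 0.91 in injured FAPs, and the transcription factors between 0.03 and 0.13 in injured FAPs.

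Members of the list varied together among the libraries of a group. ASC replicate 3 was the lowest of the ASC libraries for 35 of the 42 genes, beside 26.9% of all genes tested, and the highest for 1, *Irf1*. Injured FAP replicate 2 was the lowest of the injured FAP libraries for 37 of the 42, beside 33.8% of all genes tested. The median coefficient of variation over the 42 genes was 26.8% in ASCs, 8.35% in FAPs and 12.5% in injured FAPs, beside 13.9%, 6.31% and 6.42% over the 11188 tested genes with a mean at or above that of the lowest member. As a share of all normalized counts, the 42 genes made up 0.554%, 0.603% and 0.448% in ASC replicates 1 to 3, and 0.209% and 0.187% in FAP replicates 1 and 2. The shares of injured FAPs, in order of replicate, were 0.422%, 0.361% and 0.413%, and that of the CD31+CD45+ library was 0.545%.

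Transcripts of the interferons themselves were near the limit of detection. Of 14 interferon genes, 0 passed the filter on low values, 9 were listed at 0 in every library and 5 (*Ifna2*, *Ifnab*, *Ifnb1*, *Ifnz* and *Ifng*) were above 0 in at least 1. The highest value was 10.99 for *Ifng* in the CD31+CD45+ library, on 7 reads. *Ifnb1* was 1.32, 1.13 and 6.28 in ASCs, 0 and 0 in FAPs, and 0, 0 and 0.763 in injured FAPs. A value of 0 allows up to 3 reads, which were worth 2.29 to 3.95 normalized counts in these libraries. Values above that range were those of *Ifng* in the CD31+CD45+ library, *Ifnb1* in ASC replicate 3 and *Ifna2* in FAP replicate 1 (5.7). Each of these values stood on few reads, and *Ifnb1* and *Ifng* also had lower values above 0 in other libraries. As 0 of these genes passed the filter, differences in interferon transcripts were not tested.

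Receptors and kinases of the pathway moved in both directions. *Ifnar1* was not called in any comparison (1390 to 2016 in the 8 libraries). *Ifnar2* was higher in ASCs, with 2901 to 3840 against 1554 and 1674 in FAPs (1.04, SE 0.12, adjusted p = 4.68e-05). *Ifngr1* was lower than in FAPs in injured FAPs (−1.06, SE 0.12, adjusted p = 3.36e-05) and in ASCs (−0.61, SE 0.12, adjusted p = 0.00150). The latter call was lost without ASC replicate 1 (−0.51) or FAP replicate 1 (−0.53). *Jak1* was 25468 to 34598 in ASCs, 8184 to 9143 in injured FAPs, and 5281 and 5931 in FAPs, without overlap. Its rise after injury (0.63, SE 0.14) was 0.55 and not called without FAP replicate 2, nor was it called after quantile normalization (0.52) or at a common 75th percentile (0.54).

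*Jak2* was higher in ASCs (2.03, SE 0.14) and in injured FAPs (1.44, SE 0.14) than in FAPs, whereas *Tyk2* was lower in both (−1.05 and −1.19, SE 0.23).

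Of the genes that induce interferon, 16 of the 18 found in the table were tested. In ASCs against FAPs 6 were higher and 5 lower, beside 23.4% and 23.8% of all genes tested. After injury 3 were higher and 4 lower, beside 24.9% and 27.7%. The largest difference was that of *Irf5*, at 26.3 to 30.1 in ASCs and 186 and 237 in FAPs (−2.85, SE 0.20) and at 179 to 237 in injured FAPs (2.80 against ASCs, SE 0.18). The adaptor *Myd88* was higher in ASCs (4432 to 5565) than in FAPs (1554 and 1620). The cytosolic DNA sensor *Cgas* counted 466, 250 and 304 in ASCs, 85.6 and 84.7 in FAPs, and 263, 290 and 277 in injured FAPs. Its adaptor *Sting1* was 1280 to 1453 in ASCs, 1281 to 1484 in injured FAPs, and 771 and 821 in FAPs. Both were higher in ASCs (1.94 and 0.77) and in injured FAPs (1.69 and 0.81) than in FAPs. *Irf3* was lower in both (−0.76 and −0.75), as was the adaptor *Ticam1* (−0.97 and −1.16). At a common 75th percentile *Sting1* was not called in ASCs against FAPs (0.57).

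Of 6 feedback genes, 3 (*Socs1*, *Socs3* and *Ptpn2*) were higher in ASCs than in FAPs and 1, *Ptpn6*, was lower (−2.60, SE 0.55). The shares of all genes tested were 23.4% and 23.8%. *Ptpn6* was low, at 4.53 to 7.90 in ASCs, where 3 reads were worth 3.40 to 3.95, and at 28.5 and 54.6 in FAPs. After injury 2 (*Ptpn2* and *Ptpn11*) were higher and 1 (*Pias1*) lower, beside 24.9% and 27.7%. In injured FAPs against ASCs 1 (*Ptpn6*) was higher and 4 (*Socs1*, *Socs3*, *Pias1* and *Ptpn2*) lower, beside 25% and 25.8%. *Socs1*, an inhibitor of JAK kinases, was high in ASCs (3445 to 5488) and lower in FAPs (1082 and 1200) and injured FAPs (734 to 998). It was higher in ASCs than in FAPs (1.89, SE 0.19, adjusted p = 1.57e-05) and lower in injured FAPs than in ASCs (−2.32, SE 0.17, adjusted p = 1.10e-06). *Socs3* was higher in ASCs than in FAPs (0.97) and lower in injured FAPs than in ASCs (−1.06), but after quantile normalization these differences were 0.18 and 0.11, the latter turned in direction, and neither was called. The phosphatase gene *Ptpn2* was higher in ASCs (1.84) and injured FAPs (1.16) than in FAPs.

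Over the 31 tested genes of the pathway outside the list, of 48 found in the table, 13 were higher and 8 lower in ASCs than in FAPs (median 0.28), beside 23.4% and 23.8% of all genes tested. After injury, 8 were higher and 7 lower than in FAPs (median −0.09), near the shares of 24.9% and 27.7% over all genes tested. In injured FAPs against ASCs, 4 were higher and 10 lower (median −0.34), beside 25% and 25.8%.

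A second list of 57 interferon-stimulated genes outside the 42 was all found in the table, and 52 were tested. Of these, 41 were higher and 0 lower in ASCs than in FAPs by limma (median 1.74), beside 23.4% and 23.8% of all genes tested. After injury, 31 were higher than in FAPs and 4 (*Slfn5*, *Isg20*, *Oas1b* and *Znfx1*) lower (median 0.69), beside 24.9% and 27.7%, *Znfx1* being named after its value was seen. In injured FAPs against ASCs, 2 (*Slfn9* and *Epsti1*) were higher and 25 lower (median −0.66), beside 25% and 25.8%. The count of 2 was 1 without ASC replicate 1 or 3 or any injured FAP library, by DESeq2, at a pseudocount of 0.5 and with a filter at a mean of 50, and it was 3 after quantile normalization and 4 without ASC replicate 2.

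The T cell chemokine *Cxcl10* counted 12574, 10607 and 14837 in ASCs, 242 and 198 in FAPs, 2748, 1669 and 2181 in injured FAPs, and 600 in the CD31+CD45+ library. The related *Cxcl9* had 2052 to 2325 in ASCs, 285 to 385 in injured FAPs, and 104.6 and 130 in FAPs. Both had the order ASCs, injured FAPs, FAPs without overlap. The log2 fold change of *Cxcl10* was 5.84 (SE 0.20, adjusted p = 2.71e-08) in ASCs against FAPs and 3.30 (SE 0.20, adjusted p = 8.09e-07) in injured FAPs against FAPs, and *Cxcl9* fell by 2.75 (SE 0.14) in injured FAPs against ASCs.

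Schlafen genes did not move alike. *Slfn2* rose from 6.59 and 13.3 in FAPs to 360 to 414 in injured FAPs (5.21, SE 0.36) and was 255 to 608 in ASCs (5.37 against FAPs, SE 0.36). *Slfn9* was 1487 to 1609 in injured FAPs, 180 to 358 in ASCs, and 67.7 and 72.3 in FAPs, so that injured FAPs stood above all other libraries (2.75 against ASCs, SE 0.23, adjusted p = 2.87e-06). *Slfn5* went the other way, with 2246 to 2348 in injured FAPs, 5364 and 5506 in FAPs, and 12435 to 14708 in ASCs (−1.25 against FAPs, SE 0.10, adjusted p = 2.93e-06).

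Among other genes of this second list, the exonuclease gene *Isg20* fell after injury from 356 and 372 to between 181 and 202 (−0.93, SE 0.14). *Oas1b* fell by 0.69 (adjusted p = 0.0182), a call lost without either FAP library or without injured FAP replicate 2 (−0.51, adjusted p = 0.0696), and after quantile normalization (−0.39). *Oas1g* was 40.2 to 140 in ASCs against 0.951 and 0 in FAPs, and shares sequence with *Oas1a*. As both of its FAP values lay below the worth of 3 reads, no fold change is given for it. *Oas3* rose after injury from 4.70 and 7.61 to between 139 and 261 (4.62, SE 0.73). *Tgtp2* (−3.34, SE 0.39) and *Ifi203* (−2.69, SE 0.18) had the steepest falls beside *Cxcl9* in injured FAPs against ASCs. *Epsti1* had the value 0 in each FAP library, and counted 14.1, 41.1 and 15.3 in injured FAPs and 2.64, 13.6 and 5.02 in ASCs. *Epsti1* passed the filter on low values only through the injured FAP libraries, where it was high, so no fold change is given for it. The counts above include *Oas1g* and *Epsti1*, and also *Gbp10*, which passed only through ASCs.

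The CD31+CD45+ cells of injured muscle had no replicate, so no test was made. Their library exceeded all 3 injured FAP libraries for 28 of the 42 genes, beside 45.5% of all genes tested, and lay below all 3 for 10, beside 47.9%. The PYHIN genes *Ifi204* and *Ifi205* lay below every sorted library, at 181 and 29.8. *Zbp1*, at 118, lay within the range of FAPs (101 and 152) and below all injured FAP libraries. *Rsad2*, *Cmpk2* and *Gbp7* lay above every sorted library, at 2458, 1759 and 3476.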

How the data were processed

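Reads of 9 libraries were aligned by the authors to mm10 with HISAT2, counted per gene with featureCounts of Subread and tested with DESeq2, per the submitters' notes and the methods. The authors deposited a normalized signal value per gene and library, and its scaling and the strand setting of the counting are not given in the sources used here. Multiplied by a size factor of the library, 100% of values were whole numbers of reads (tolerance 0.001), so edgeR 4.0.16 and DESeq2 1.42.0 were also run on the recovered reads. Genes called between ASCs and FAPs numbered 6416 by limma, 6450 by edgeR and 6412 by DESeq2. Between injured FAPs and FAPs they numbered 7153, 7303 and 7227, and between injured FAPs and ASCs 6909, 7000 and 6865. Empty columns (2, with 0 holding values) were not used. Exon overlaps, shared 100-base stretches, transcript lengths and gene positions came from GENCODE M21 (GRCm38), and promoter windows from RefSeq.

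The main test was limma 3.58.1 in R 4.3.3 with a trend on log2(value + 1), with group means over 8 libraries (5 residual degrees of freedom) and p adjusted by Benjamini-Hochberg over the 13601 genes whose mean reached 10. Calls needed an adjusted p under 0.05 and an absolute log2 fold change over 0.58. Fold changes on this scale understate those of low genes. Intervals and limits for values of 0 cover counting error or the spread of libraries only. The steps were also run on simulated data, of which no result is given or used here. Values in every library are given for the genes with the largest difference after injury and the highest mean per kb in each role class, and for the 3 with the largest rise and fall in each comparison among those called. Of the second list, the latter 3 were named. The members and lists were chosen with earlier results of these data known. The counts over the pathway list include 1 gene that is not reported here. Alternatives were other pseudocounts (0.5 and 8), other filters (none, or a mean of 50), quantile normalization, a common 75th percentile, the unadjusted p, only the compared groups, a replicate block, leaving out each library, and the other tools.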

Additional observations from a re-analysis of the deposited data

Results flagged for a closer look

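In the CD31+CD45+ library, which entered no test, 15 of the 42 interferon-stimulated genes lay above every ASC, FAP and injured FAP library, beside 28.3% of all genes tested. They were *Ifit2*, *Ifi44*, *Irf9*, *Stat2*, *Oas2*, *Rsad2*, *Ifi35*, *Ifitm1*, *Ifitm2*, *Gbp3*, *Gbp7*, *Xaf1*, *Samd9l*, *Sp100* and *Cmpk2*. Below every such library lay 2 of the 42, *Ifi204* and *Ifi205*, beside 25.8% of all genes tested. There is no replicate of this library, and these differences were not tested. The count of 15 is not read as particular to the list.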

How the results depend on the processing

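Over all alternatives, 782 of 798 values of the 42 genes kept their call, or stayed without one, in ASCs against FAPs, 767 of 798 in injured FAPs against FAPs and 771 of 798 in injured FAPs against ASCs. Leaving out a library of the group not compared keeps the fold change as it was, so part of this agreement was fixed in advance. Among differences called in at least 1 of the settings compared, the direction turned for *Ifitm2* in ASCs against FAPs (0.04, and −0.62 after quantile normalization) and for *Socs3* in injured FAPs against ASCs (−1.06, and 0.11 after quantile normalization), and the cause was not tested. Differences without a call also changed sign: 41 of the 42 genes were above 0 in injured FAPs against FAPs, 37 after quantile normalization and 38 at a common 75th percentile, and in injured FAPs against ASCs 13 were, and 7 without ASC replicate 3. Quantile normalization also gave 1 gene lower in ASCs against FAPs, 1 lower in injured FAPs against FAPs and 4 higher in injured FAPs against ASCs, and the common 75th percentile gave 1 lower in injured FAPs against FAPs. Without a filter on low values, 1 gene was higher in injured FAPs than in ASCs, as more genes entered the adjustment. Leaving out 1 library gave 32 to 37 genes higher in ASCs than in FAPs, 22 to 28 higher in injured FAPs than in FAPs, 1 to 5 higher and 20 to 25 lower in injured FAPs than in ASCs, and 0 lower than in FAPs in either comparison. Where it left a single FAP library, that library was assumed to vary like the other groups. Deviations of same-numbered libraries from their group means correlated between −0.054 and 0.045. With 2 or 3 libraries per group, these values cannot decide whether replicate numbers pair the libraries. With the replicate number as a block, 30 genes were higher and 1 (*Irf1*) lower in injured FAPs than in FAPs, and no call of the other comparisons changed (36 higher in ASCs than in FAPs, 2 higher and 22 lower in injured FAPs than in ASCs). The ISRE core was present in 18 genes, in 10 when followed by CT and in 14 when only the 250 bases before the start were searched. The depth limits low genes: 3 reads were worth 2.29 to 4.71 normalized counts.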
